A study of Orbicella faveolata with 18 samples.

Results

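Heat shock proteins are molecular chaperones that bind unfolded or immature proteins, and their messages are among those that many animal cells make in larger amounts when warmed. Their genes are switched on by heat shock transcription factor 1 (HSF1), which sits inactive in a complex with chaperones such as HSP90 and, once released, binds heat shock elements in their promoters. Activating transcription factor 5 (ATF5) belongs to the basic leucine zipper (bZIP) factors of the ATF/CREB family and, in mammals, is known for its part in responses to protein stress. The arrays carried 4 clones with these annotations, taken here by their identifiers out of 1218 clones in the deposited table: AOSF1451 (HSP90), CAOO2018 (97 kDa heat shock protein), CAON1605 (HSF1) and CAON612 (ATF5). Their names come from the study's annotation, since the deposited values carry clone identifiers only. All 4 passed the filter of a value on at least 2 of 3 arrays in every condition, which 1099 clones passed.

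The RNA came from whole embryos of the reef coral Montastraea (Orbicella) faveolata, which carried no algal symbionts, kept at 27.5, 29.0 or 31.5°C and taken 48 or 12 hours after fertilization. Fertilization took place at a temperature between 29.0 and 31.5°C, and embryos were moved to their treatment temperature afterwards. The paper cautions that this may partly affect expression, above all after 12 hours. Embryos of a condition were combined from several containers, and 1 RNA isolation of each of the 6 conditions was hybridised on 3 technical arrays, 18 arrays in all. The sample carried Cy5 and a common pooled reference carried Cy3 on every array, and a value is the log2 ratio of sample over reference. A level is therefore relative to the pool, and levels of different clones cannot be set against each other. Each SD below covers hybridisation and not differences between cultures, and in RNA of whole embryos fewer cells of a type and less RNA per cell cannot be told apart.

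The arrays at 27.5°C after 12 hours lacked 241, 79 and 84 clones and had 1616 to 2067 usable spots, against at most 26 missing clones and 2583 to 3365 usable spots on the others. Array medians lay between -0.08 and 0.05 on the log2 scale. Arrays of 1 condition correlated with each other at 0.9 or above over clones, except at 27.5°C after 12 hours (down to 0.676) and where a pair held replicate 1 of 31.5°C after 12 hours (down to 0.581) or of 29.0°C after 48 hours (down to 0.596). A difference was called where the 95% intervals of both condition means, from a linear model per clone, did not overlap, and the limit is the smallest difference at which they separate. That call compares 1 RNA sample with 1 other and has no p-value.

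Among the 4 clones, calls between temperatures fell on the transcription factors. Such calls covered 7.83% to 23.3% of all clones, depending on the comparison. ATF5 exceeded its 27.5°C level in the 31.5°C sample of 48 hours and in both warmer 12 hour samples, by 1.54-fold to 1.55-fold each time. HSF1 was not called after 48 hours, and after 12 hours was 1.37-fold higher at 31.5°C than at 27.5°C, a call that did not hold under every alternative. Neither heat shock protein clone differed between temperatures past its limit. In a fit with the RNA sample as the unit, 0 of 1099 clones were called between 27.5°C and either warmer temperature. Between time points HSP90 was lower after 48 than after 12 hours at every temperature, by 2.46-fold to 3.71-fold. Calls between time points covered 35.9% to 49.3% of all clones.

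**Figure D1:**
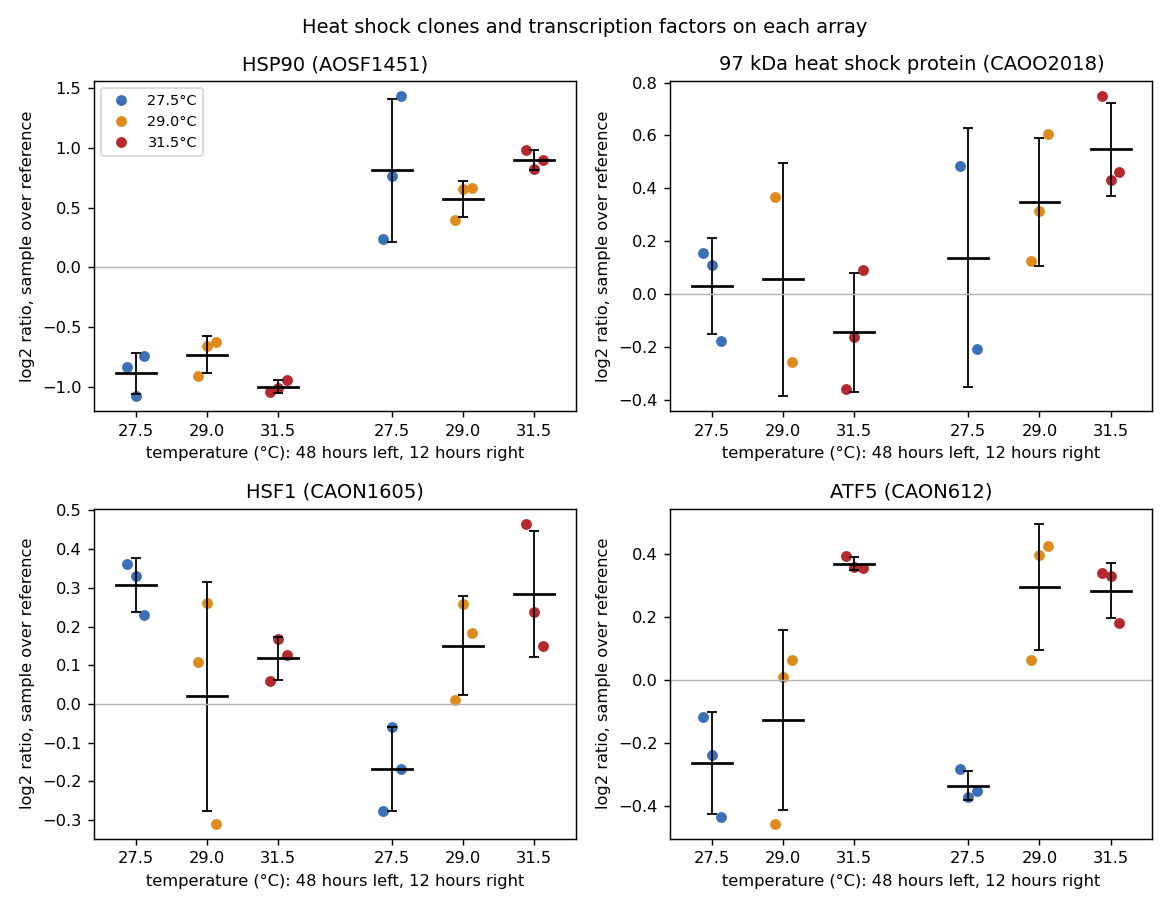
Log2 ratio of sample over reference (vertical axes, a scale per panel) on each array for the 4 clones, by temperature (horizontal axes, °C), with 48 hours on the left and 12 hours on the right of each panel. Points are arrays, bars are means and whiskers are SDs over the 3 technical arrays (2 for CAOO2018 in the 48 hour sample of 29.0°C and the 12 hour sample of 27.5°C); HSP90 separates by time point, while ATF5 separates 27.5 from 31.5°C at both time points.

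The HSP90 clone (AOSF1451), for the chaperone that holds many signalling proteins in an active form, had log2 ratios after 48 hours of -0.84, -1.07 and -0.74 at 27.5°C, -0.91, -0.66 and -0.63 at 29.0°C, and -1.04, -1.01 and -0.94 at 31.5°C. The arrays at 31.5°C all lay below those at 29.0°C, by -0.26 in the mean (95% interval of the difference over technical arrays -0.75 to 0.22). The differences from 27.5°C were 0.15 at 29.0°C and -0.11 at 31.5°C, with overlapping arrays. None of these reached the limit of 0.68.

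After 12 hours HSP90 had log2 ratios of 0.24, 0.77 and 1.43 at 27.5°C, 0.40, 0.65 and 0.66 at 29.0°C, and 0.98, 0.82 and 0.89 at 31.5°C. The arrays at 27.5°C covered a wider range than those of both warmer conditions together, so that the levels overlapped between 31.5 and 27.5°C and between 29.0 and 27.5°C. The difference of 31.5 minus 29.0°C was 0.33 (interval -0.16 to 0.81), with every array at 31.5°C above every array at 29.0°C, and lay under the limit. The difference of 29.0 minus 27.5°C was -0.24 (interval -0.72 to 0.24).

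The HSP90 values at 27.5°C after 12 hours hung on single arrays. Leaving out 1 array at a time moved the difference of 31.5 minus 27.5°C, 0.09 with all arrays, between -0.20 and 0.40, without a call. Replicates 1 and 2 of that condition are the only arrays whose files name a second image-analysis user. With replicate 3 as the only array left there, HSP90 had a difference of 31.5 minus 27.5°C of -0.53 and of 29.0 minus 27.5°C of -0.86, both past a limit of 0.46, but that limit takes the spread from the other conditions and assumes that the lone array varies like them. The part of the image-analysis user in these values was not tested.

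The clone of the 97 kDa heat shock protein (CAOO2018), named for its size, had the widest spread of the 4. After 48 hours it had values of 0.16, 0.11 and -0.18 at 27.5°C, 0.37 and -0.26 at 29.0°C, where replicate 3 gave none, and -0.36, -0.16 and 0.09 at 31.5°C. All conditions overlapped, and the differences from 27.5°C were 0.03 (interval -0.54 to 0.60) at 29.0°C and -0.17 (interval -0.68 to 0.34) at 31.5°C.

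After 12 hours the same clone had values of 0.48 and -0.21 at 27.5°C, where replicate 1 gave none, 0.13, 0.31 and 0.61 at 29.0°C, and 0.75, 0.43 and 0.46 at 31.5°C. The means stood in the order of the temperatures, 0.14 ± 0.49 (SD, n = 2 arrays), 0.35 ± 0.24 (n = 3) and 0.55 ± 0.18 (n = 3), with arrays that overlapped between neighbours and between the extremes. The difference of 31.5 minus 27.5°C was 0.41, with an interval of -0.16 to 0.98 and a limit of 0.80. It was 0.76 without replicate 2 and 0.063 without replicate 3 of 27.5°C, and without replicate 3 the difference of 29.0 minus 27.5°C was -0.14 and the order was lost. Its spread over technical arrays, a pooled SD of 0.279, was wider than in 81.07% of the clones tested, and HSP90 at 0.272 was wider than 79.07%. HSF1 at 0.158 and ATF5 at 0.162 lay below the median clone at 0.197. The limits followed, at 0.68 for HSP90, 0.72 to 0.88 for CAOO2018, 0.40 for HSF1 and 0.41 for ATF5, so a heat shock protein clone had to differ by more than a transcription factor clone to be called.

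HSF1 (CAON1605), the factor that switches on heat shock genes, had log2 ratios after 48 hours of 0.36, 0.33 and 0.23 at 27.5°C, 0.11, 0.26 and -0.31 at 29.0°C, and 0.06, 0.17 and 0.13 at 31.5°C. Every array at 31.5°C lay below every array at 27.5°C, by -0.19 in the mean (interval -0.47 to 0.09), which was under the limit of 0.40. The difference of 29.0 minus 27.5°C was -0.29, with arrays that overlapped, and moved between -0.41 and -0.12 when 1 array was left out. It passed its limit in 1 of these 18 fits, the one without replicate 2 of 29.0°C (-0.41). With array weights it was called by limma over technical arrays (-0.44, adjusted p = 0.00474). That setting called 221 clones for this comparison, against 86 by the interval criterion, and likewise sets 1 RNA sample against 1 other.

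After 12 hours HSF1 had values of -0.28, -0.06 and -0.17 at 27.5°C, 0.01, 0.26 and 0.18 at 29.0°C, and 0.47, 0.24 and 0.15 at 31.5°C. The arrays at 27.5°C were all below zero, and those of both warmer conditions were all above zero. HSF1 averaged 0.28 ± 0.16 at 31.5°C and -0.17 ± 0.11 at 27.5°C (SD, n = 3 arrays each), a difference of 0.45 that passed the limit. The difference of 29.0 minus 27.5°C, 0.32 (interval 0.04 to 0.60), did not pass.

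The HSF1 call at 31.5°C after 12 hours was close to its limit. It held in 15 of 18 fits that left out 1 array, and ended without replicate 1 of 31.5°C (0.36), replicate 1 of 27.5°C (0.40) or replicate 3 of 27.5°C (0.45). It also ended with every array centred on its median (0.44 against a limit of 0.45), with arrays scaled to 1 spread (0.37 against 0.50), without the arrays of the second image-analysis user (0.45 against 0.58) and with array weights (0.34, limma adjusted p = 0.31). Of the clones tested, 79.07% had a smaller difference in either direction, and HSF1 stood at rank 108 of 1099 from the highest. Calls were common, since 16.7% of the clones passed between 31.5 and 27.5°C after 12 hours, 82 of them higher and 102 lower. Both differences from 27.5°C thus had the opposite sign after 48 hours to that after 12 hours.

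That contrast between time points was tested in limma over the technical arrays with Benjamini-Hochberg adjustment over all clones. The HSF1 change of 31.5 minus 27.5°C was lower after 48 than after 12 hours by -0.64 ± 0.19 (SE, adjusted p = 0.0247). That of 29.0 minus 27.5°C was lower by -0.61 ± 0.19 (limma, adjusted p = 0.106) and was not called. The share of clones called in this test was 24.7% at 31.5°C and 3% at 29.0°C. The HSF1 call at 31.5°C held in 15 of 18 fits that left out 1 array, with limma adjusted p between 0.0122 and 0.0609, and ended without replicate 1 or 2 of 27.5°C after 48 hours or replicate 1 of 31.5°C after 48 hours. The test rests on technical arrays of 4 RNA samples.

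ATF5 (CAON612) had log2 ratios after 48 hours of -0.12, -0.24 and -0.44 at 27.5°C, -0.46, 0.01 and 0.06 at 29.0°C, and 0.39, 0.36 and 0.35 at 31.5°C. The arrays at 31.5°C lay close together and above every array of both cooler conditions, which overlapped each other. ATF5 averaged 0.37 ± 0.02 at 31.5°C and -0.27 ± 0.16 at 27.5°C (SD, n = 3 arrays each), a difference of 0.63 or 1.55-fold, past the limit of 0.41. The difference of 31.5 minus 29.0°C, 0.50 or 1.41-fold, also passed, but not without replicate 1 of 29.0°C (0.33). At 29.0°C the difference from 27.5°C was 0.14 (interval -0.15 to 0.43), and no array of the middle temperature reached the arrays at 31.5°C.

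The shares of clones called after 48 hours were 7.83% for 29.0 against 27.5°C, 23.3% for 31.5 against 27.5°C and 17.9% for 31.5 against 29.0°C. ATF5 stood at rank 70 from the highest on the difference of 31.5 minus 27.5°C.

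After 12 hours ATF5 had values of -0.28, -0.37 and -0.35 at 27.5°C, 0.06, 0.40 and 0.42 at 29.0°C, and 0.34, 0.33 and 0.18 at 31.5°C. The arrays at 27.5°C stood clear of both warmer conditions, which overlapped each other. ATF5 averaged 0.29 ± 0.20 at 29.0°C and -0.34 ± 0.05 at 27.5°C (SD, n = 3 arrays each), a difference of 0.63 or 1.55-fold. It averaged 0.28 ± 0.09 at 31.5°C, a difference from 27.5°C of 0.62 or 1.54-fold. Both differences passed the limit, while that of 31.5 minus 29.0°C was -0.01 (interval -0.30 to 0.28).

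The share of clones called between 29.0 and 27.5°C after 12 hours was 17.9%, and that between 31.5 and 29.0°C after 12 hours was 17%. ATF5 stood at rank 47 of 1099 clones on the difference of 29.0 minus 27.5°C and at rank 58 on that of 31.5 minus 27.5°C, counted from the highest. The 3 ATF5 calls against 27.5°C held in each of the 18 fits that left out 1 array. The change at 31.5°C differed between 48 and 12 hours by 0.01 ± 0.20 (SE, limma adjusted p = 0.96) and the change at 29.0°C by -0.49 ± 0.20 (SE, limma adjusted p = 0.196).

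**Figure D2:**
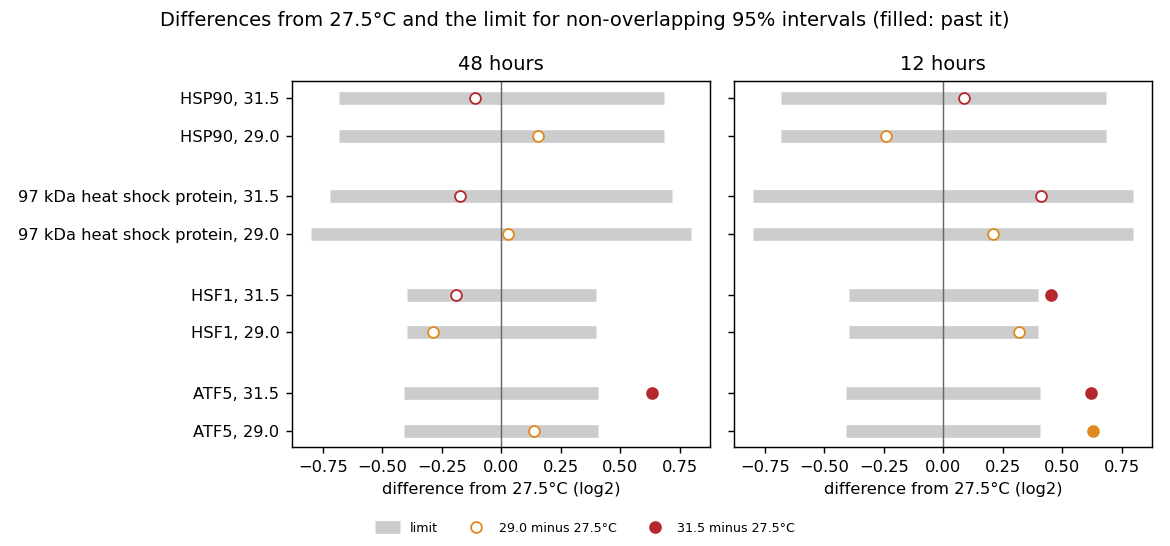
Difference in log2 ratio from 27.5°C (horizontal axes) at 29.0°C (orange) and 31.5°C (red) for each clone, after 48 hours (left) and 12 hours (right). Grey bars span the limit on either side of 0 and filled points lie past it: ATF5 at 31.5°C in both panels (0.63 and 0.62), ATF5 at 29.0°C after 12 hours (0.63) and HSF1 at 31.5°C after 12 hours (0.45).

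With the RNA sample as the unit, the 6 condition means were fitted in limma with temperature and time point as additive factors, and none of the 4 clones differed between temperatures at an adjusted p below the threshold of 0.05. The number of clones called was 0 of 1099 (0%) for 29.0 against 27.5°C and 0 (0%) for 31.5 against 27.5°C, and 33 and 67 clones had an unadjusted p under 0.05. ATF5 had the largest change of the 4 clones, 0.63 ± 0.22 (SE) for 31.5 minus 27.5°C, at rank 20 of 1099 from the highest, with a limma p of 0.0207 and an adjusted p of 0.694. Its change of 29.0 minus 27.5°C was 0.38 ± 0.22 (limma adjusted p = 0.975). The ATF5 change at 31.5°C was between 0.50 and 0.76 when 1 RNA sample was left out, which left 1 temperature with 1 sample. The corresponding changes of 31.5 minus 27.5°C were -0.01 ± 0.23 for HSP90, 0.12 ± 0.23 for CAOO2018 and 0.13 ± 0.24 for HSF1. Each averages both time points, so this fit cannot show a temperature change that differs between them. HSF1 had -0.19 after 48 hours and 0.45 after 12 hours, and CAOO2018 had -0.17 and 0.41.

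HSP90 was the clone of the 4 with a call at each temperature between time points. Its highest array after 48 hours, -0.63, lay below its lowest array after 12 hours, 0.24. The difference of 48 minus 12 hours at 27.5°C was -1.70 (interval -2.18 to -1.21), that at 29.0°C was -1.30 (interval -1.78 to -0.82), and that at 31.5°C was -1.89 (interval -2.38 to -1.41). Each passed the limit of 0.68 and held in every fit that left out 1 array. Calls between time points covered 45.5% (27.5°C), 49.3% (29.0°C) and 35.9% (31.5°C) of clones. On the signed difference HSP90 stood at ranks 28, 53 and 13 of 1099 from the lowest.

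In the limma fit with RNA samples as units, HSP90 fell by 1.63 ± 0.18 (SE) on the log2 scale, or 3.09-fold, from its 12 hour level (adjusted p = 0.000227). It ranked 24 from the lowest among 1099 clones, of which 37.9% were called (522 at an unadjusted p under 0.05). The change was between -1.79 and -1.50 without any 1 of the 6 RNA samples, with limma adjusted p of at most 0.00593. The change of HSP90 at 31.5°C differed between 48 and 12 hours by -0.20 ± 0.29 (SE, limma adjusted p = 0.645), and that at 29.0°C by 0.39 ± 0.29 (limma adjusted p = 0.493), neither called.

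The other members were not called between time points in that fit. CAOO2018 changed by -0.36 ± 0.18 (SE, limma adjusted p = 0.146). At 31.5°C its difference of 48 minus 12 hours was -0.69, with arrays that did not overlap, against a limit of 0.72, which it passed in 4 of 18 fits that left out 1 array, and at 27.5 and 29.0°C it was -0.11 and -0.29 with overlapping arrays. HSF1 changed by 0.06 ± 0.19 (limma adjusted p = 0.828) over all temperatures.

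By temperature, HSF1 was higher after 48 than after 12 hours at 27.5°C, by 0.48 and past its limit, and differed by -0.13 at 29.0°C and -0.17 at 31.5°C with overlapping arrays. At 27.5°C 45.5% of all clones were called, and 48.86% had a smaller difference than HSF1 in either direction. The HSF1 call at 27.5°C ended without replicate 1 of 27.5°C after 12 hours (0.42) or without replicate 1 (0.45) or 2 (0.46) of 27.5°C after 48 hours. ATF5 changed by -0.09 ± 0.18 over all temperatures (limma adjusted p = 0.729). At 29.0°C it was lower after 48 hours by -0.42 against a limit of 0.41, a call that held in 6 of 18 fits that left out 1 array. There 49.3% of all clones were called, and 43.49% had a smaller difference than ATF5 in either direction. The ATF5 differences at 27.5 and 31.5°C were 0.07 and 0.09.

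**Figure D3:**
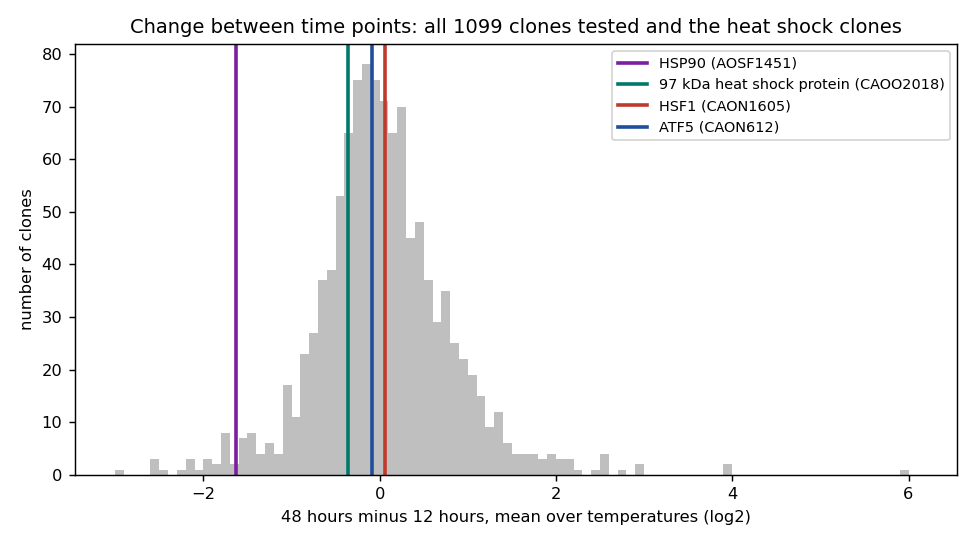
Distribution of the change of 48 minus 12 hours (horizontal axis, log2, mean over 3 temperatures) over all 1099 clones tested (vertical axis, number of clones). Vertical lines mark the 4 clones: HSP90 at -1.63 lies in the lower tail, and CAOO2018 at -0.36, ATF5 at -0.09 and HSF1 at 0.06 lie in the body.

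Ordered by level, HSP90 ran through 31.5, 27.5 and 29.0°C after 12 hours (0.90, 0.81 and 0.57) and then 29.0, 27.5 and 31.5°C after 48 hours (-0.73, -0.88 and -0.995). The only neighbours in that order past the limit were 29.0°C after 48 hours and 29.0°C after 12 hours, with a gap of 1.30. CAOO2018 ran over 0.69 log2 units and HSF1 over 0.48, and no neighbours in either order differed past the limit. HSF1 was highest at 27.5°C after 48 hours (0.31) and lowest at 27.5°C after 12 hours (-0.17), so the coolest temperature held both ends of its range. ATF5 ran over 0.70, and its 6 means fell into 3 above zero and 3 below, with a gap between them of 0.411 against a limit of 0.409. That gap lay between the 31.5°C sample of 12 hours (0.28) and the 29.0°C sample of 48 hours (-0.13).

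Over the 6 condition means, the heat shock protein clones had the most similar profiles among the members, with a Pearson correlation of 0.83 between HSP90 and CAOO2018. HSF1 and ATF5 correlated at 0.41, CAOO2018 with HSF1 at 0.28 and with ATF5 at 0.28, HSP90 with ATF5 at 0.09, and HSP90 with HSF1 at -0.20. All clones on an array share its sample, its reference and its hybridisation, and 6 points carry little information, so these values are descriptions.

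The profile of HSP90 was common on the array, with 114 clones above a correlation of 0.9, against 23 for CAOO2018, 4 for ATF5 and 3 for HSF1. Most like HSP90 were AOSF1178 (leishmanolysin family protein, a metallopeptidase, 0.994), AOSF1397 (0.993) and CAOO2543 (0.992), and most like CAOO2018 were CAON1064 (0.988), CAON1123 (CCAAT enhancer binding protein gamma, C/EBP gamma, 0.973) and AOSC1059 (0.973). Closest to HSF1 were CAON1150 (0.973), AOSF818 (0.942) and CAON1267 (0.907), and closest to ATF5 were CAON606 (0.959), AOSB827 (0.931) and AOSC457 (predicted protein, 0.925). Those given without a name have none in the study's annotation. By Euclidean distance in place of correlation, 1 of the 3 nearest clones was shared for each member.

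C/EBP gamma, a bZIP factor like ATF5, was the clone nearest to CAOO2018 by Euclidean distance (0.214). Its means were between -0.03 and 0.02 after 48 hours, and after 12 hours they were 0.13 ± 0.28 (27.5°C), 0.46 ± 0.11 (29.0°C) and 0.69 ± 0.26 (31.5°C; SD, n = 3 arrays each). Its difference of 31.5 minus 27.5°C after 12 hours was 0.56 and passed its limit of 0.49. The remaining bZIP clone (AOSF512) was lower at 29.0 than at 27.5°C, with differences of -0.41 after 48 hours and -0.36 after 12 hours, both past its limit of 0.34, where ATF5 had 0.14 and 0.63.

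**Figure D4:**
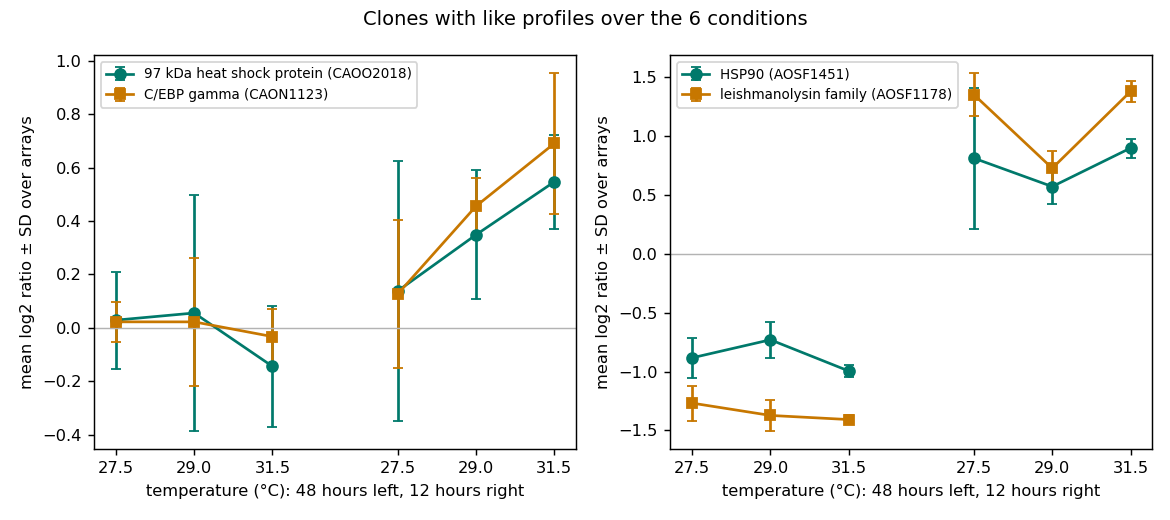
Mean log2 ratio ± SD over arrays (vertical axes) by temperature (horizontal axes, °C), with 48 hours left and 12 hours right in each panel, for CAOO2018 with C/EBP gamma (left panel) and HSP90 with the leishmanolysin family clone (right panel). CAOO2018 and C/EBP gamma both stand highest at 31.5°C after 12 hours (0.55 and 0.69), and HSP90 and its companion stand below zero at 48 hours and above zero at 12 hours.

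The members were set beside further clones for protein folding, protein breakdown, stress, transcription and cell death. These lists hold only clones that the study itself called on the same arrays. Their counts are thus not independent evidence of a direction. Through that choice alone, the lists can hold a larger share of called clones than the array. They follow the study's annotation with the members left out, HSF1 out of the stress list and ATF5 out of that of transcription. Among all clones, 23.3% were called between 31.5 and 27.5°C after 48 hours and 16.7% after 12 hours. Of the 4 other folding clones, 3 were lower and none higher at 31.5 than at 27.5°C after 48 hours, with a median of -0.42, and 1 was higher and 1 lower after 12 hours, with a median of -0.13. The median over all clones was -0.01 after 48 hours and -0.02 after 12 hours. HSP90 and CAOO2018, at -0.11 and -0.17 after 48 hours, had smaller differences than calreticulin (AOSC448, a chaperone of the endoplasmic reticulum, -0.69), the prolyl isomerase FKBP1A (AOSF836, -0.59) and sulfhydryl oxidase (AOSF787, which forms disulfide bonds, -0.26). After 12 hours the mitochondrial chaperonin Cpn60 (AOSF528) was lower at 31.5°C by -0.39 and sulfhydryl oxidase higher by 0.33.

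For 31.5 against 27.5°C, 23.3% of all clones were called after 48 hours and 16.7% after 12 hours. Of 11 ubiquitin and proteasome clones, which mark and degrade proteins, 4 were higher and 4 lower at 31.5 than at 27.5°C after 48 hours, and 2 were higher and 2 lower after 12 hours. Ubiquitin-conjugating enzyme E2 S (AOSB1028) at 1.14 was the highest and the ubiquitin-like protein FUBI (CAON1748) at -0.82 the lowest of them after 48 hours, against 0.63 for ATF5. Of 13 clones annotated with a response to stress, 4 were higher and 2 lower at 31.5°C after 48 hours (median 0.01), where HSF1 had -0.19, and none was higher and 6 were lower after 12 hours (median -0.33), where HSF1 had 0.45. Clones of transcriptional regulation, 8 of 9 within the filter, had 1 higher at 31.5°C after 48 hours, and 2 higher and 1 lower after 12 hours. Of 6 tested apoptosis clones, 4 were lower after 48 hours and 2 after 12 hours, and none of the 6 was higher. ATF5, also known for a role in cell survival, is not among these 6.

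At 29.0°C after 48 hours the lists gave 1 lower of 4 folding clones, 1 lower of 11 ubiquitin and proteasome clones, 4 higher and 1 lower of 13 stress clones, 2 lower of 8 transcription clones, and 4 lower of 6 apoptosis clones (median -0.40), where 7.83% of all clones were called. After 12 hours, where ATF5 was higher at 29.0°C, they gave 1 lower folding clone, 2 higher and 2 lower ubiquitin and proteasome clones, 1 higher and 2 lower stress clones, 2 higher and 1 lower transcription clones, and 2 lower apoptosis clones, against 17.9% of all clones. In the limma fit over RNA samples no clone of any list was called between temperatures.

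**Figure D5:**
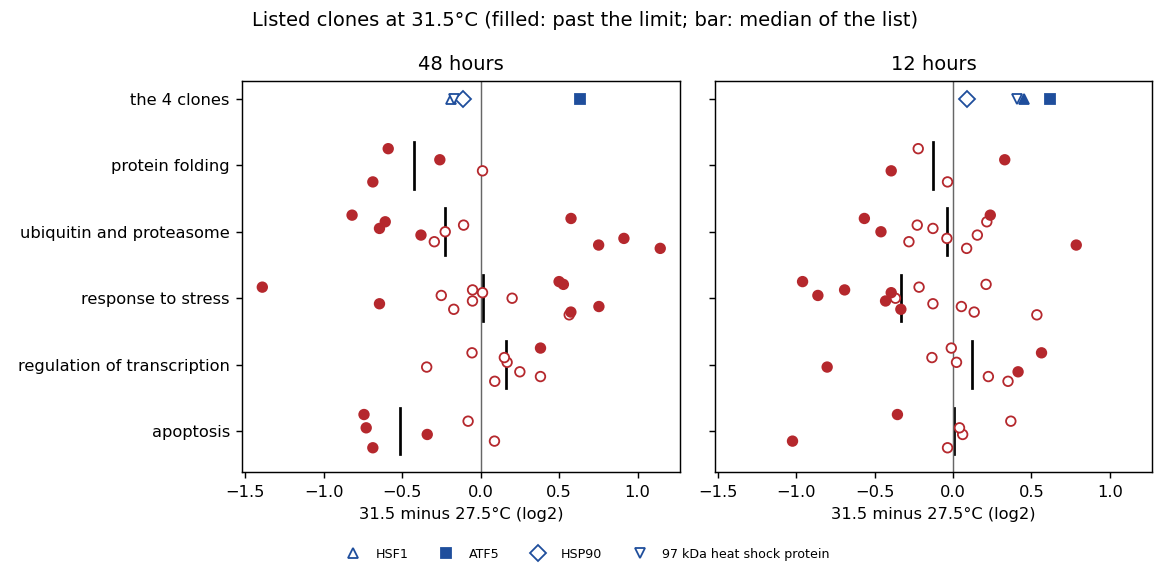
Difference in log2 ratio of 31.5 minus 27.5°C (horizontal axes) after 48 hours (left) and 12 hours (right) for the 4 clones (blue) and the clones of 5 lists (red), with filled points past the limit and a black bar at the median of each list. ATF5 lies to the right in both panels (0.63 and 0.62), HSF1 is filled after 12 hours only, and the folding clones have a median of -0.42 after 48 hours and -0.13 after 12 hours.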

How the data were processed

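RNA of Montastraea faveolata embryos was measured on 2-colour cDNA arrays, 3 technical arrays for each of 6 conditions. The deposited table gives, for a clone on an array, the log2 ratio of sample (Cy5) to reference (Cy3), which the authors obtained by reading background-subtracted spots in TIGR Spotfinder and applying print-tip LOWESS in MIDAS. That the scale is log2 was checked against the deposited scanner files, whose intensity columns the authors left unnormalized between channels and whose spots carry no clone identifiers. These files served for signal levels, which were 3.27 to 14.3 times background in Cy5 and 2.92 to 8.83 times in Cy3. The source names of the labels give rounded temperatures, and the titles were followed. The labels and the methods describe the composition of the pooled reference differently, but it cancels between conditions. No dyes were swapped.

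Per clone, a linear model with a mean for each condition, fitted over all 18 arrays, gave 1 residual spread and a 95% confidence interval for each mean. The study's methods also call a clone where 95% intervals do not overlap, but theirs are credible intervals from BAGEL, a Bayesian model of the ratios, so the calls here come from another model. CAOO2018 lacked 2 arrays, which were dropped and not imputed. The RNA sample fit (limma 3.58.1, R 4.3.3) used the means of the 6 conditions with 2 residual degrees of freedom, and the difference between time points in a temperature change was tested in limma over the 18 arrays, all with Benjamini-Hochberg adjustment over 1099 clones. The number of arrays limits the precision. Replicate numbers did not pair arrays: deviations of same-numbered arrays correlated between -0.16 and 0.20. Calls were tested on simulated data with independent array noise only, which held no differences between cultures, weak arrays or missing values.

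Clone names and lists came from the study's supplementary annotation of 538 clones, 496 of them tested. Besides the members, the text names listed clones that met the interval criterion against 27.5°C and the 3 clones most correlated with each member. The members and lists were chosen with earlier results of these data known. The alternatives were median centring, scaling by the median absolute deviation, other filters, a replicate block, limma's moderated test, array weights, linear ratios, a spread taken from the compared conditions only, and leaving out arrays or RNA samples. Leaving out the arrays of the second image-analysis user was chosen after seeing the file headers. Figures used Python 3.11.15 and matplotlib 3.10.9.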

Additional observations from a re-analysis of the deposited data

Results flagged for a closer look

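HSF1 (CAON1605) was singled out because its change at 31.5°C differed between the time points in a test of that difference. That test called 24.7% of the 1099 clones, among which HSF1 stood at rank 182 by p-value. The change of 31.5 minus 27.5°C was -0.19 after 48 hours and 0.45 after 12 hours, and the difference was -0.64 (limma over technical arrays, adjusted p = 0.0247). It was higher at 31.5°C on every array after 12 hours and lower on every array after 48 hours. At each time 1 RNA sample stands on either side, so a difference between cultures and a difference between temperatures cannot be told apart.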

How the results depend on the processing

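Under 34 alternatives, 1421 of 1542 values of the 4 clones kept their sign and their side of the threshold, 36 lost and 21 gained a call with the sign kept, and 64 changed sign, 1 of them with a call gained (HSP90 at 31.5 against 27.5°C after 12 hours without the second image-analysis user, -0.53). The HSP90 calls between time points and the ATF5 calls against 27.5°C held under each alternative run. For HSF1 at 31.5°C after 12 hours (0.45), leaving out 1 array gave 0.36 to 0.52, and the call ended under median centring (0.44), scaling by median absolute deviation (0.37), without the second image-analysis user (0.45) and with array weights (0.34). The HSF1 difference between time points in the change of 31.5 minus 27.5°C was not called without that user (-0.64). Nor was it called with array weights (-0.55, limma adjusted p = 0.0637). The ATF5 difference of 31.5 minus 29.0°C after 48 hours was not called with the spread of those conditions alone. CAOO2018 at 31.5°C, -0.69 between time points, was called by limma's moderated test (adjusted p = 0.0137), with the spread of those conditions alone, without the second user and with array weights (-0.63, adjusted p = 0.00248). Its difference at 29.0°C was called with array weights (-0.61, adjusted p = 0.0204), and the difference of its 31.5°C change between time points without the second user (-0.93, adjusted p = 0.0433).

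Replicate numbers did not pair the arrays. A replicate block kept the HSF1 difference of 0.45 called (limit 0.38), ended the ATF5 call between time points at 29.0°C (-0.42, limit 0.44), changed no other call of the members, and gave 204 clones for 29.0 against 27.5°C after 12 hours and 264 for the difference at 31.5°C.

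Scaling moved the counts of clones called to 121 for 29.0 against 27.5°C and 121 for 31.5 against 29.0°C after 12 hours, and 145 for 29.0 against 27.5°C after 48 hours. The spread of the compared conditions alone gave 110 and 72 clones for 29.0 and 31.5 against 27.5°C after 12 hours and 497 for 31.5 against 27.5°C after 48 hours, and limma's moderated test 49 for 29.0 against 27.5°C after 48 hours. Array weights gave 397 for 31.5 against 29.0°C after 12 hours, 221, 634 and 482 for 29.0 against 27.5, 31.5 against 27.5 and 31.5 against 29.0°C after 48 hours, 657 between time points at 31.5°C, and 98 for the difference at 29.0°C, which was 145 without the second image-analysis user. The cause was not tested.

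Without 1 RNA sample or 1 array, 204 (either 27.5°C sample left out) to 601 (31.5°C after 12 hours left out) clones were called between time points, 0 to 7 (a 31.5°C sample left out) for 29.0 against 27.5°C, and 0 to 124 (31.5°C after 12 hours left out) for 31.5 against 27.5°C. A difference between time points in the change of 29.0 minus 27.5°C was called for 11 (replicate 1 or 3 of 27.5°C after 48 hours left out) to 107 clones (replicate 1 of 27.5°C after 12 hours left out). For the change of 31.5 minus 27.5°C it was called for 164 (replicate 3 of 27.5°C after 48 hours left out) to 315.

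Uncalled values also changed sign. Under scaling, RNA sample changes were 0.065 (HSP90) and -0.084 (HSF1) at 29.0°C and 0.13 (HSP90) at 31.5°C. The change of 31.5 minus 27.5°C differed between time points by 0.42 (HSP90) and -0.0029 (ATF5) without the second user and -0.0018 (ATF5) with array weights. Without 1 array or RNA sample, the change between time points was -0.15 to 0.17 (HSF1) and -0.18 to 0.078 (ATF5). In these fits the RNA sample change of 29.0 minus 27.5°C was -0.29 to 0.20 (HSP90), -0.073 to 0.31 (CAOO2018) and -0.30 to 0.33 (HSF1). That of 31.5 minus 27.5°C was -0.21 to 0.18 (HSP90), -0.13 to 0.36 (CAOO2018) and -0.18 to 0.44 (HSF1). The difference between time points in the change from 27.5°C was -0.53 to 0.16 (CAOO2018) at 29.0°C. At 31.5°C it was -0.51 to 0.090 (HSP90) and -0.072 to 0.087 (ATF5).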

Other observations

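Most of the other folding clones stood on the opposite side of HSP90 between time points. In the limma fit over RNA samples, where HSP90 changed by -1.63, 3 of 4 folding clones were higher and 1 lower after 48 than after 12 hours, with a median of 0.74, against -0.01 over all clones, of which 37.9% were called. FKBP1A (AOSF836) changed by 0.92 (limma adjusted p = 0.00401), calreticulin (AOSC448) by 0.76 (adjusted p = 0.0142) and sulfhydryl oxidase (AOSF787) by 0.73 (adjusted p = 0.0151), while the chaperonin Cpn60 (AOSF528) changed by -1.07 (adjusted p = 0.00159), in the direction of HSP90. Of 13 stress clones 3 were higher and 8 lower (median -0.77), among them the transcription factor HES-1 (AOSF533) at -1.73 and the universal stress protein (AOSF1521) at 2.98. Of 11 ubiquitin and proteasome clones 1 was higher and 4 lower, and neither of the other bZIP clones was called (0.25 for AOSF512 and -0.42 for C/EBP gamma, limma adjusted p = 0.268 and 0.104). The study chose the clones of these lists for differences between temperatures on the same arrays.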
